A study of Mus musculus with 17 samples.

Results

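RIKEN names such as 1700010I14Rik were given to mouse transcripts found as full-length cDNA clones, and the first 4 digits name the clone library. The 1700 library came from adult testis. The transcripts described here were selected by name, with a 1700-series RIKEN name in the deposited table, and on measured counts, with at least 100 counts summed over all 17 libraries. In all, 416 of the 23362 genes in the table met both conditions, out of 444 with such a name, and 1 name, 1700030C10Rik, stood for 2 of these genes. Just inside the minimum lay 1700063O14Rik, 1700039E22Rik and 1700129L04Rik, with 100, 107 and 118 counts, and just outside it lay 1700020M21Rik, 1700126H18Rik and 1700029J03Rik, with 99, 97 and 95 counts.

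The RNA came from dissected testis pieces of *Inha* wildtype (WT) and *Inha* knockout (KO) mice on the C57/Bl6 background, with a labelled age of postnatal day 48 to 52. The paper's methods give a slightly older age range for the dissected testes, which does not overlap the labelled one. The KO animals lack the inhibin alpha subunit constitutively, in every cell, and develop gonadal tumours. Pieces were taken from WT testes, and from KO testes as 3 kinds of piece: tubules of normal look (N), tubules associated with tumour (TAT) and the tumours themselves (TM). Each group held 3 animals, with N, TAT and TM from the same 3 KO animals, and no treatment was given to any group. Summing the libraries by animal and region gave 12 summed libraries of 6349355 to 65236050 counts. *Inha* itself had 62.9 to 70.6 CPM (counts per 1000000 counts) in WT testes and 0.51 to 5.24 CPM in the KO libraries. These were whole pieces of tissue, so fewer cells of a type and less RNA per cell cannot be told apart. KO animal 79813 supplied 2 N, 2 TAT and 4 TM libraries. The summed level of 12 spermatid markers was 26368 to 32870 CPM in WT testes and 1165, 3462 and 447 CPM in TM of animals 79781, 79813 and 79853, and all 12 were called lower in TM. That of 8 spermatocyte markers was 1959 to 2477 CPM in WT testes and 292, 967 and 249 CPM in TM, and 7 of the 8 were called lower. The TM of animal 79813 thus held the most RNA of both kinds. The 7 spermatogonia markers summed to 44.4 to 58.4 CPM in WT testes and 79.2, 181 and 191 CPM in TM. Of these, 3 (*Zbtb16*, *Stra8* and *Uchl1*) were called higher and 4 were not called. The paper found little or no SALL4 staining in tumours and called the meaning of such transcripts there unclear. Markers of red cells (221 to 293 CPM in WT testes, 11374 to 30379 CPM in TM) and myoid cells (78.3 to 119 and 468 to 1784 CPM) were all called higher in TM. Of 4 granulosa cell markers, *Foxl2* was not in the table. The other 3, *Cyp19a1*, *Fst* and *Inhba*, were called higher (summed, 18.7 to 22.1 and 1306 to 2966 CPM). The paper describes *Inhba* as encoding activin A and *Cyp19a1* as a steroidogenic enzyme, so their levels alone do not show granulosa cells. All 4 endothelial and 3 of 4 leukocyte markers were higher. Of 8 Sertoli cell markers 2 were higher and 2 lower, and of 5 Leydig cell markers 1 was higher and 3 were lower. Among all genes tested, 30.6% were called lower and 27.8% higher in TM. No marker of these lists in the table was at 0 in every TM animal, and the part of the markers in the changes below was not tested.

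Spermatogenesis runs from spermatogonia through meiotic spermatocytes to haploid spermatids, which pack their chromatin with transition proteins and protamines and build an acrosome and a flagellum. Many long noncoding RNAs and many proteins of the sperm tail and acrosome are transcribed mainly in spermatocytes and spermatids. Of the 416 transcripts, 132 were annotated as protein coding, 136 as lincRNA (long RNAs that lie between genes), 79 as antisense RNA, 24 as processed transcripts, 17 as still to be experimentally verified and 16 as pseudogenes. The others were 6 bidirectional promoter lncRNAs, 2 sense intronic RNAs and 4 without an entry in the annotation used here (GENCODE M21, GRCm38). No transcript lay on the Y chromosome and 12 lay on the X chromosome. RefSeq held 359 of the 416, and 43 of those under another name, for example Cfap206 for 1700003M02Rik, Llcfc1 for 1700034O15Rik and Mtres1 for 1700021F05Rik.

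Promoter windows from RefSeq (GRCm38.p6, 250 bases before to 50 after the start) were found for 283 of the transcripts. Windows of 4 transcripts are shown because the levels of the first pair were much lower in tumour and those of the second pair were not, and capitals mark each CG dinucleotide. The windows lie at chr17:8988083-8988382 on the plus strand, chr6:41684181-41684480 on the plus strand, chr10:43540969-43541268 on the minus strand and chr2:119594046-119594345 on the plus strand, and are written 5′ to 3′.
1700010I14Rik: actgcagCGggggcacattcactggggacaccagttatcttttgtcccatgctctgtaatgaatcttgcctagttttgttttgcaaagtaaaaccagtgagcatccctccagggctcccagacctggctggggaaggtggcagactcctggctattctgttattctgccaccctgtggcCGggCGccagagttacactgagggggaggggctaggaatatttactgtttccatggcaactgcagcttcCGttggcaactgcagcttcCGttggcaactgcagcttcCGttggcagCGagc
1700034O15Rik: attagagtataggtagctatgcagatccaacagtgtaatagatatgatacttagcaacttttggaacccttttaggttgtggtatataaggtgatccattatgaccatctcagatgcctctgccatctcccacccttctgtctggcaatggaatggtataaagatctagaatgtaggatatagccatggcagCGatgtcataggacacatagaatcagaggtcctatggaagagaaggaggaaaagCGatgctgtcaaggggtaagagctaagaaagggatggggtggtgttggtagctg
1700021F05Rik: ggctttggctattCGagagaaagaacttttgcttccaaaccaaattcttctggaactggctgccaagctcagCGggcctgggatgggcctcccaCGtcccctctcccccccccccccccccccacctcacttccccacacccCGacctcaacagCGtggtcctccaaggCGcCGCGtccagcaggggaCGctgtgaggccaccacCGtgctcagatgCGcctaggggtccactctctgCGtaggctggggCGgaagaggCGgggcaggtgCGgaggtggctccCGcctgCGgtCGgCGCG
1700020I14Rik: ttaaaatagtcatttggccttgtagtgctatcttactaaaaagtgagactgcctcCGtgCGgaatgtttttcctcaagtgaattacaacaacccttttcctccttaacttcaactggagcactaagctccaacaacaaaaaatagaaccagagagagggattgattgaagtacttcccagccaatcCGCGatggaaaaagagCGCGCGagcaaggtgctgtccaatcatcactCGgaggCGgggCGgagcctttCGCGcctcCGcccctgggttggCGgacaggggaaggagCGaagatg
The windows held 7, 2, 20 and 15 CG dinucleotides. Over all 27025 genes in the RefSeq table the median was 7, over the 260 transcripts called lower in tumour 4.5 and over the 23 not called 15. At least 10 CG dinucleotides were present in 30.8% of the 260 windows, in 56.5% of the 23 windows and in 43.9% of all windows.

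Short motifs were searched on both strands of the same windows. The 6 letters GTTGCC, the core bound by RFX factors, which drive genes of cilia and flagella, occurred in 20.5% of the 283 windows (58) and in 12.7% of all windows. These letters were in 20% of the 260 windows of transcripts called lower in tumour and in 26.1% of the 23 not called. The window of 1700010I14Rik printed above held 3 copies, written there as its complement ggcaac, within a repeated stretch near its end. The full cyclic AMP response element TGACGTCA occurred in 5 windows (1.77%, against 1.88% of all), and its part TGACG, which overlaps it, in 21.2% against 21% of all. TAACGG, a core of MYB sites, occurred in 4.24% against 2.68%, and TATAAA in 10.6% against 14.2%. These shares describe letters in the windows and were not tested.

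In WT testes the 416 transcripts took 4.11%, 4.23% and 4.07% of all counts in the 3 animals. The share was 3.79%, 3.47% and 3.45% in N of KO animals 79781, 79813 and 79853, 2.14%, 2.69% and 1.58% in TAT, and 0.357%, 0.882% and 0.153% in TM, in the same order of animals. The values of the 4 groups did not overlap. The mean was 4.14% ± 0.0833 (SD, n = 3) in WT, 3.57% ± 0.191 in N, 2.14% ± 0.555 in TAT and 0.464% ± 0.376 in TM. With any 1 of the 416 transcripts left out, the groups still did not overlap. That outcome was fixed in advance, because no single transcript held enough counts to close a gap between groups. Without 1700027A15Rik, which had the highest CPM in WT, the mean share was 3.96% in WT and 0.454% in TM.

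**Figure D1:**
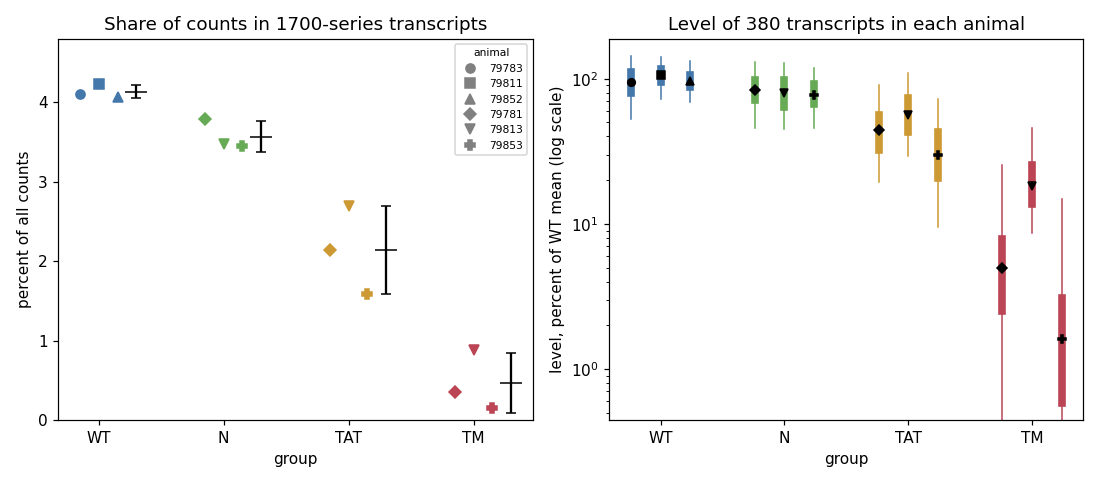
Left, the percentage of all counts in the 416 transcripts (vertical axis) for each animal in WT, N, TAT and TM, with the group mean and SD beside the points. Right, for the 380 transcripts with a mean of at least 2 CPM in WT testes, the level in each animal as a percentage of the WT mean on a log scale, where symbols are medians, thick bars span the 25th to 75th percentiles and thin bars the 5th to 95th, with bars that reach 0 going off the axis. The medians fall from 77.3% to 83.4% in N to 1.61% to 18.3% in TM.

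Among the 380 transcripts with a mean of at least 2 CPM in WT testes, the median level was 83.4%, 79.4% and 77.3% of the WT mean in N of animals 79781, 79813 and 79853. It was 44.0%, 56.6% and 29.7% in TAT and 4.94%, 18.3% and 1.61% in TM. Animal 79813 thus had the highest and animal 79853 the lowest median in both TAT and TM. Of the 416 transcripts, 388, 396 and 397 had at least 1 CPM in the 3 WT animals, and 247, 341 and 184 in TM of KO animals 79781, 79813 and 79853. A count of 0 was found for 74, 5 and 105 transcripts in TM of the 3 KO animals, the TM of animal 79813 being the most deeply sequenced.

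In tumour compared with WT, 368 of the 415 transcripts that passed the filter on low counts were lower and none was higher (adjusted p under 0.05 with more than 1.5-fold change). These are 88.7% and 0%, beside 30.6% lower and 27.8% higher among all 19791 genes tested. The edgeR test called no transcript higher, 1 (1700123O20Rik) was higher at an unadjusted p under 0.05, and DESeq2 called 1 and limma-voom none. The median log2 fold change was -3.46 over the transcripts and -0.07 over all genes. The 3 TM animals lay below all 3 WT animals for 380 transcripts, 91.6% of those tested, beside 33.1% of all genes. Of the 368, 86 had a log2 fold change of -4 or less, 274 lay between -4 and -2 and 8 were above -2. TM of animal 79813 had the highest TM level for 352 of the 368.

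**Figure D2:**
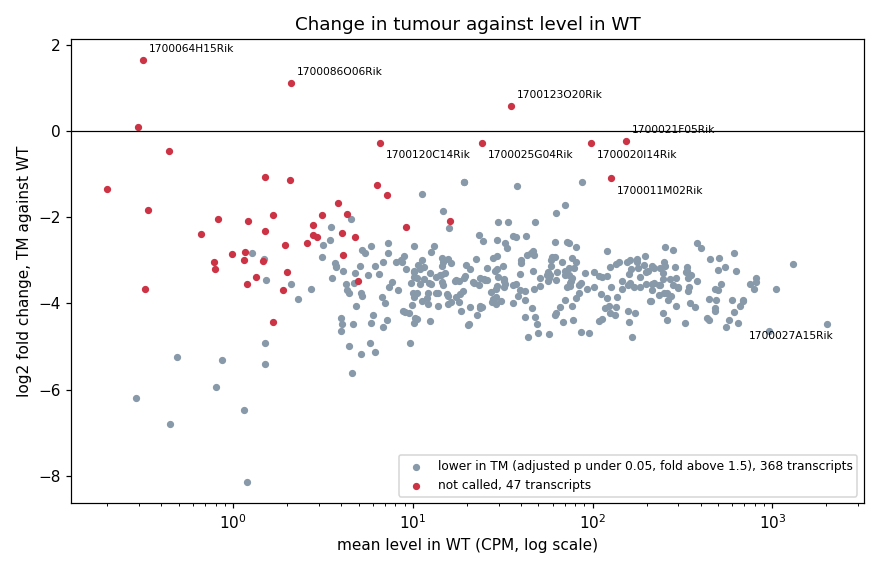
The log2 fold change in TM against WT (vertical axis) against the mean level in WT in CPM (horizontal axis, log scale) for the 415 transcripts tested, with 368 called lower in grey and 47 not called in red. The 25th and 75th percentiles of the fold changes are -3.90 and -3.01. The lowest points belong to transcripts with no or almost no reads in TM, whose fitted size is set by the model.

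The transcripts with the most counts in WT all fell in tumour. 1700027A15Rik, annotated as antisense (chromosome 1, 72984844 to 73025507, plus strand), had 2372, 1918 and 1791 CPM in WT testes and 71.6, 180 and 22.7 CPM in TM pieces (log2 fold change -4.47, SE 0.62, adjusted p = 0.000137). Its exons overlap those of *Tnp1* on the other strand, which encodes a transition protein that replaces histones in spermatids. How the counting treated strand is not known here, so reads of the pair cannot be told apart. *Tnp1* fell by 3.88 on the log2 scale (SE 0.65), and the ratio of 1700027A15Rik to *Tnp1* was 0.719 to 1.43 in WT and 0.498 to 0.851 in TM, ranges that overlap.

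1700010I14Rik, a protein coding gene of 12 exons on chromosome 17, had 1123, 1365 and 1428 CPM in WT testes. It had 1141, 1266 and 1088 CPM in N pieces, 673, 1014 and 556 CPM in TAT pieces and 99.7, 321 and 38.2 CPM in TM pieces. The WT and N values overlapped, while every TM value lay below every value of the other groups (TM against WT, log2 fold change -3.09, SE 0.59, adjusted p = 0.000849). The 4 TM libraries of animal 79813 had 220 CPM in testis 1 and 325, 378 and 274 CPM in the 3 tumours of testis 2, all above the other KO animals' tumours.

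Of the other transcripts with the most counts, 1700015G11Rik fell by 4.63 on the log2 scale, from 733 to 1395 CPM in WT testes to 7.80 to 78.9 CPM in TM pieces. 1700019N19Rik, 1700029F12Rik, 1700074P13Rik, 1700003E16Rik and 1700029H14Rik, all protein coding, and 1700086L19Rik, a transcribed unitary pseudogene, fell by 3.42 to 3.95 on the log2 scale. 1700034O15Rik (Llcfc1), which encodes a sperm protein needed in mice for fusion with the egg, had 681, 702 and 690 CPM in WT testes and 29.8, 96.8 and 11.1 CPM in TM pieces (log2 fold change -3.91, SE 0.60, adjusted p = 0.000243). The WT values of Llcfc1 were close together, and all 3 N values (481, 460 and 458 CPM) lay below them.

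Of the transcripts that RefSeq names after cilia and flagella or the sperm acrosome, 7 were picked for their names after the values were seen. Cfap206 (1700003M02Rik), a radial spoke protein of motile axonemes, had 618, 681 and 582 CPM in WT testes and 39.3, 148 and 7.80 CPM in TM pieces (log2 fold change -3.26, SE 0.73). Cfap161, Cfap299, Cfap157 and Cfap97d1 had log2 fold changes of -3.14, -3.05, -3.04 and -3.58, and Spaca9, a protein of axonemal microtubules and the acrosome, of -3.55. Cfap77 (1700101E01Rik), which lies inside the doublet microtubules of cilia, changed less, from 8.84, 19.0 and 16.2 CPM in WT testes to 4.30, 5.34 and 2.49 CPM in TM pieces (log2 fold change -1.86, SE 0.43, adjusted p = 0.00286). All 7 were called lower, as were 88.7% of all 1700-series transcripts tested. Of 19 other genes of the flagellum in a list made from general knowledge, all 19 were called lower in TM, 1 in TAT and none in N, beside 30.6%, 4.61% and 0.0202% of all genes.

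Another 3 called transcripts, of the spermatid nucleus and of meiosis, are given as examples picked after their values were seen. H2bl1 (1700024P04Rik), a spermatid histone variant, had 197, 325 and 271 CPM in WT testes and 9.14, 38.9 and 4.26 CPM in TM pieces (log2 fold change -3.91, SE 0.67, adjusted p = 0.000438). H2al1m (1700012L04Rik), an X-linked histone variant of a family of near-identical copies, had 17.7 to 33.6 CPM in WT testes and 0 to 3.46 CPM in TM pieces (log2 fold change -4.06, SE 1.28, adjusted p = 0.0165), with non-whole values in 16 libraries that mark reads shared with other genes. Majin (1700123I01Rik), which ties meiotic telomeres to the nuclear envelope, had 13.1, 12.7 and 12.3 CPM in WT testes and 6.79, 11.1 and 12.6 CPM in TAT pieces, so the groups overlapped there. In TM it had 0.0914, 3.78 and 1.18 CPM (log2 fold change -2.81, SE 0.74, adjusted p = 0.00598).

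The 8 transcripts with the most negative log2 fold changes, among those with at least 10 CPM in WT testes and no overlap between the groups, were of mixed kinds. They were 1700006F04Rik, 1700009J07Rik, 1700096J18Rik, 1700080N15Rik, 1700031F10Rik, 1700080E11Rik, 1700015G11Rik and 1700042G07Rik, with values from -4.54 to -4.78. 1700009J07Rik, a lincRNA of chromosome 10, had 166, 182 and 148 CPM in WT testes and 1.64, 13.5 and 2.23 CPM in TM pieces (SE 0.66, adjusted p = 0.000136). 1700031F10Rik lies antisense to *Dnajb8*, a testis co-chaperone of the Hsp40 family, and had 78.5 to 112 CPM in WT testes and 1.19 to 7.47 CPM in TM pieces, while *Dnajb8* itself fell by 4.6 on the log2 scale (SE 0.63). In all, 4 of the transcripts had no read in any TM library, which allows up to 0.0341 CPM over the group for counting error only. Of these, 1700028B04Rik was too low to be tested. With the WT counts taken as exact, 1700030I03Rik was at least 34.6-fold lower, 1700007M16Rik at least 17.1-fold and 1700063O14Rik at least 9.43-fold. Error in the low WT counts is not part of these bounds. With the 3 at these bounds the median over all transcripts was -3.45.

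The median log2 fold change in TM was -3.46 over the 132 protein coding transcripts, of which 124 were lower, and -3.51 over the 136 lincRNAs, of which 121 were lower. It was -3.51 over the 79 antisense RNAs, of which 70 were lower. It was -3.34 over 15 pseudogenes tested, of which 13 were lower, -3.19 over 24 processed transcripts, of which 20 were lower, and -3.19 over 17 transcripts still to be verified, of which 10 were lower (58.8%). All 6 bidirectional promoter lncRNAs, 1 of 2 sense intronic RNAs and 3 of the 4 without an annotation entry (median -3.91) were lower. No difference between kinds was tested.

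The 1700 series was set beside other RIKEN names with at least 100 counts. Further series, with names such as 4930527E20Rik and 4933402N03Rik, also came from testis libraries, and 367 of 489 such genes tested (75.1%) were lower in TM and 2 were higher, with a median log2 fold change of -3.19. Of the 675 genes tested from all other RIKEN series, 174 (25.8%) were lower and 146 were higher, with a median of -0.11. No test was run between these sets, which share all their samples.

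**Figure D3:**
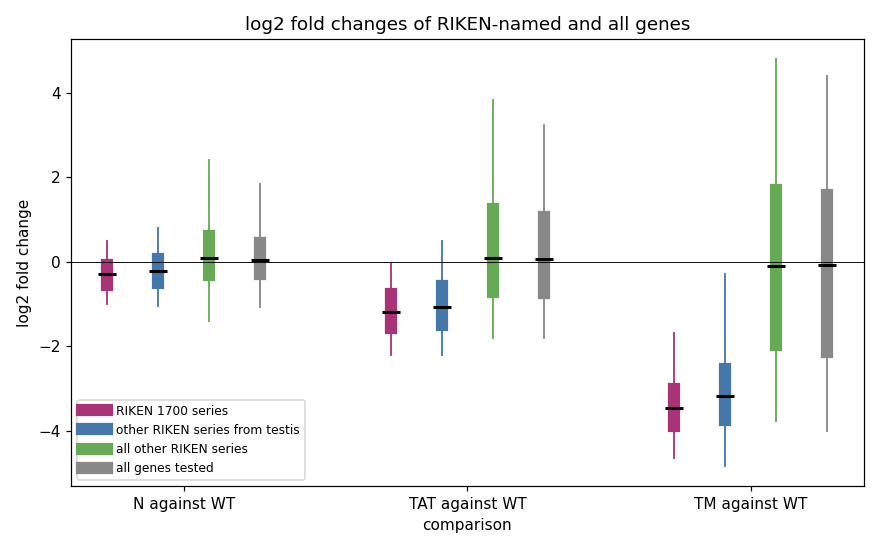
The log2 fold changes in N, TAT and TM against WT (vertical axis) for the 1700 series, the other testis series, all other RIKEN series and all genes tested, where black marks are medians, thick bars span the 25th to 75th percentiles and thin bars the 5th to 95th. The medians of the 1700 series are -0.28, -1.19 and -3.46, and those of all genes 0.03, 0.07 and -0.07. All 3 comparisons use the same WT samples.

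Of the transcripts tested, 47 were not called lower in TM. They were chosen by this comparison, so their changes are given as description. The median of their mean level in WT was 2.00 CPM, beside 39.9 CPM for the 368 called lower, and 23 of the 47 had under 2 CPM. For 38 of them the log2 fold change was below -1 with a large error, for example -2.09 for the lincRNA 1700048O20Rik (SE 0.85, adjusted p = 0.0511). The number not called was 32 with DESeq2, 21 with limma-voom on 17 libraries and 96 without KO animal 79781, and 15 were not called lower in any of the 15 settings, 7 of them with at least 2 CPM in WT testes. The other 9 had log2 fold changes of -1 or above, and 6 of these had at least 2 CPM in WT testes.

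1700021F05Rik, named Mtres1 in RefSeq, encodes the mitochondrial transcription rescue factor, a protein of mitochondria in many tissues (ENSMUSG00000019797, chromosome 10, 43525133 to 43540994, minus strand). It had 117, 178 and 168 CPM in WT testes, 180, 169 and 167 CPM in N pieces, 149, 148 and 159 CPM in TAT pieces and 129, 143 and 121 CPM in TM pieces. The TM values lay within the range of WT (log2 fold change -0.23, SE 0.20, adjusted p = 0.328). The lowest WT value was that of animal 79783, the least deeply sequenced, and the other WT values lay above all TM values. Every TM value also lay below every N and every TAT value.

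1700020I14Rik, named Oip5os1 in RefSeq, is a conserved and broadly expressed lncRNA also known as Cyrano (ENSMUSG00000085438, chromosome 2, 119594297 to 119607502, plus strand). It had 115, 93.0 and 85.0 CPM in WT testes, 60.7, 62.1 and 73.9 CPM in N pieces, 80.2, 71.5 and 75.3 CPM in TAT pieces and 66.8, 94.6 and 81.6 CPM in TM pieces. TM overlapped WT (log2 fold change -0.27, SE 0.20, adjusted p = 0.267), while every N value lay below every WT value. Against WT, N was at -0.57 (SE 0.20, adjusted p = 0.529), and DESeq2 called that difference (log2 fold change -0.62, adjusted p = 0.0373).

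1700123O20Rik is a protein coding gene of unassigned role on chromosome 14 (ENSMUSG00000040822, 54686216 to 54690741, plus strand). It had 23.9, 45.4 and 36.2 CPM in WT testes, 36.8, 35.9 and 33.0 CPM in N pieces, 49.3, 36.8 and 45.4 CPM in TAT pieces and 62.1, 50 and 47.9 CPM in TM pieces. All 3 TM values lay above all WT and all N values. Compared with WT the log2 fold change was 0.59 (SE 0.25, adjusted p = 0.0533), and compared with N it was 0.64 (SE 0.19, adjusted p = 0.0257). The call against N was lost with RLE size factors, DESeq2, limma-voom on 17 libraries, edgeR on 17 libraries, only the 2 groups in the fit, or without animal 79781. Against WT it was called with total library size (0.95), DESeq2 (0.63), without WT animal 79811 (0.81) and without KO animal 79813 (0.72). The gene starts opposite *Acin1*, a splicing and chromatin protein whose exons it overlaps on the other strand, and *Acin1* had 171 to 437 CPM in WT testes and 305 to 447 CPM in TM pieces (log2 fold change 0.27, SE 0.29).

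1700025G04Rik, a protein coding gene on chromosome 1, had 14.5, 28.6 and 29.5 CPM in WT testes and 17.8, 22.4 and 20.1 CPM in TM pieces, within the WT range (log2 fold change -0.28, SE 0.27, adjusted p = 0.396). Only the WT value of animal 79783, the least deeply sequenced, lay below the TM values, and the other WT values lay above them. 1700120C14Rik, a processed transcript on chromosome 15, had 4.07, 6.58 and 9.02 CPM in WT testes and 3.02, 6.59 and 6.69 CPM in TM pieces (log2 fold change -0.28, SE 0.49). It overlaps *Mcrs1*, a subunit of chromatin complexes, on the other strand, and *Mcrs1* fell by 0.91 on the log2 scale (SE 0.28, adjusted p = 0.0133). 1700086O06Rik, a lincRNA on chromosome 18 that overlaps *Dele1* on the other strand, had 0.177, 2.78 and 3.34 CPM in WT testes and 5.03, 7.14 and 2.03 CPM in TM pieces (log2 fold change 1.12, SE 0.72, adjusted p = 0.198). Only edgeR on the 17 libraries called it (log2 fold change 1.41).

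**Figure D4:**
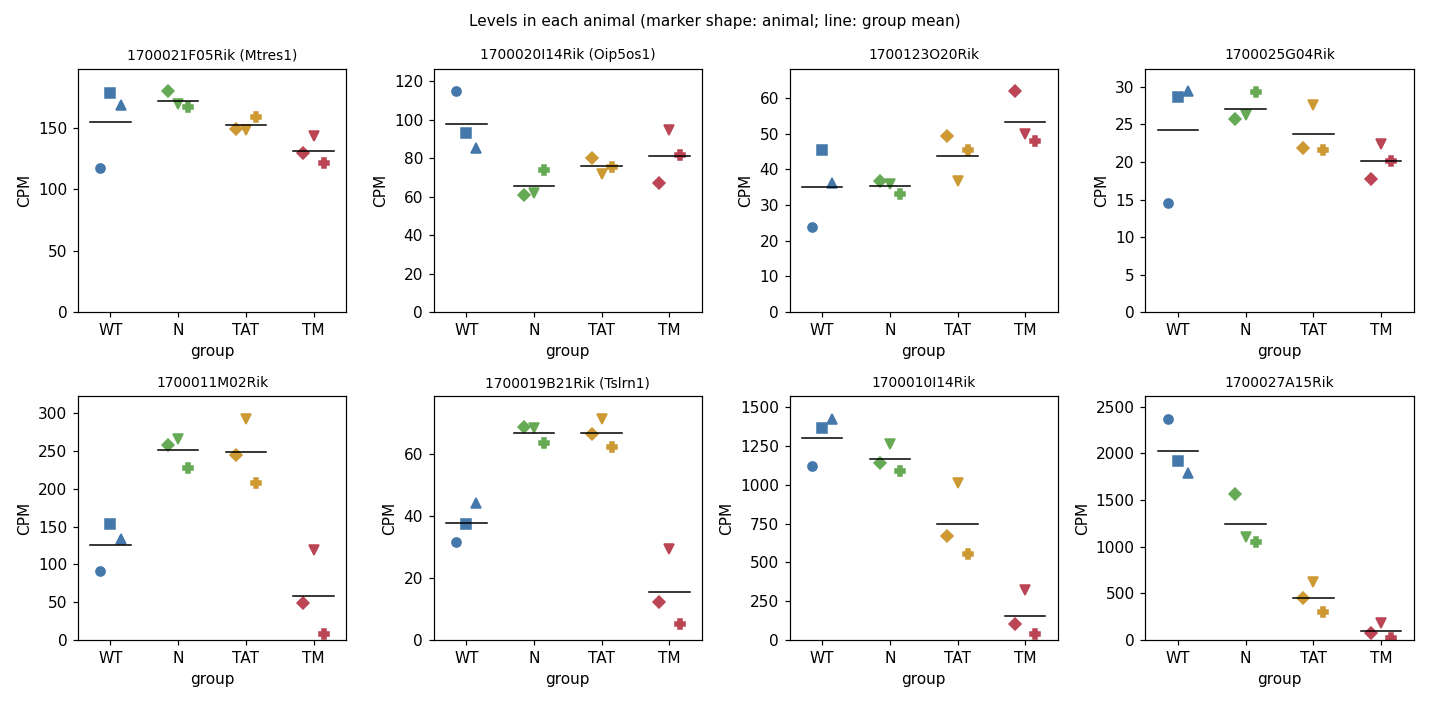
Level in CPM (vertical axes, from 0) in each animal of WT, N, TAT and TM for 8 transcripts, where marker shapes stand for animals as in the plot of shares and lines are group means. The top row holds 4 transcripts whose TM values overlap or exceed WT, the first 2 panels of the lower row hold X-linked transcripts whose N and TAT values all lie above WT, and the last 2 hold the transcripts with the most counts.

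The remaining transcripts nearest to no change were 1700112J16Rik, 1700028E10Rik and 1700112E06Rik. 1700112E06Rik, named Lrmda in RefSeq for melanocyte differentiation, had 5.30, 7.97 and 8.35 CPM in WT testes and 1.19, 5.49 and 0.852 CPM in TM pieces (log2 fold change -1.48, SE 0.62, adjusted p = 0.0562). 1700028E10Rik and 1700112J16Rik had log2 fold changes of -1.25 (SE 0.59) and -1.14 (SE 0.74). All TM values lay below all WT values for both, and for Lrmda the highest TM value overlapped WT.

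Another 8 transcripts were called lower but with a log2 fold change above -2, and are named after their values were seen. They were 1700017B05Rik, 1700019B21Rik, 1700021K19Rik, 1700030K09Rik, 1700049G17Rik, 1700052K11Rik, 1700101E01Rik and 1700113A16Rik. 1700017B05Rik had 113, 72.7 and 77.0 CPM in WT testes and 36.4, 52.6 and 27.0 CPM in TM pieces (log2 fold change -1.18, SE 0.26, adjusted p = 0.0021). 1700021K19Rik, named Rubcn in RefSeq, a negative regulator of autophagy, had 78.7, 70.0 and 63.2 CPM in WT testes and 18.8, 31.3 and 14.5 CPM in TM pieces (log2 fold change -1.71, SE 0.29, adjusted p = 0.000428).

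Another order of groups is described for 2 transcripts, both of them X-linked. They were among 8 transcripts with all N values above all WT values. The order was not general on the X chromosome, where 8 of 12 transcripts had a log2 fold change below 0 in N. 1700011M02Rik, a protein coding gene (ENSMUSG00000079476, 102908905 to 102909651, plus strand), had 91.0, 153 and 133 CPM in WT testes, 258, 266 and 228 CPM in N pieces, 245, 293 and 207 CPM in TAT pieces and 48.3, 119 and 7.93 CPM in TM pieces. All N and TAT values lay above all WT values, and TM overlapped WT. The log2 fold change was 1.00 in N (SE 0.62, adjusted p = 0.808), 0.98 in TAT (SE 0.62, adjusted p = 0.277) and -1.10 in TM (SE 0.62, adjusted p = 0.142), while TM was lower than N (log2 fold change -2.49, SE 0.66, adjusted p = 0.0145). Its values were not whole in 13 libraries, which marks reads shared with another gene. *Dmrtc1a*, a gene of the DMRT-related family that starts beside it on the other strand, had 20 to 40.7 CPM in WT testes, 42.6 to 55.3 CPM in N pieces and 5.05 to 21.5 CPM in TM pieces.

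1700019B21Rik, named Tslrn1 in RefSeq as a testis-specific lncRNA and chosen here after its values were seen, had 31.5, 37.5 and 44.4 CPM in WT testes and 68.9, 68.4 and 63.8 CPM in N pieces. It had 66.5, 71.6 and 62.3 CPM in TAT pieces and 12.2, 29.5 and 4.98 CPM in TM pieces. N and TAT again lay above WT, and TM lay below it. The change was 0.82 in N (SE 0.45, adjusted p = 0.748) and 0.82 in TAT (SE 0.45, adjusted p = 0.209), and Tslrn1 fell in TM by 1.27 on the log2 scale (SE 0.45, adjusted p = 0.0291). Both X-linked transcripts were called higher in N and in TAT only where the 2 groups compared were fitted alone (in N, 0.84 with adjusted p = 0.0435 for 1700019B21Rik and 1.01 with adjusted p = 0.028 for 1700011M02Rik). Of the 12 X-linked transcripts, 10 were called lower in TM.

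In N compared with WT the edgeR test called no transcript in either direction, beside 0.0202% higher and 0.0202% lower among all genes. At an unadjusted p under 0.05 none was higher and 1 was lower, 1700020I14Rik. DESeq2 called that 1 lower and limma-voom on 17 libraries called none. The log2 fold change was below 0 for 337 of 415 transcripts with a median of -0.28, beside 0.03 over all genes. All 3 N values lay below all 3 WT values for 133 transcripts (beside 10.3% of all genes) and above them for 8 (beside 12.3%).

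In TAT compared with WT, 42 of the 415 transcripts (10.1%) were lower and none was higher, beside 4.61% lower and 14.4% higher among all genes. None was higher at an unadjusted p under 0.05 either, nor by DESeq2 or limma-voom. The median log2 fold change was -1.19, beside 0.07 over all genes. The 6 with the smallest p were 1700019G17Rik, 1700042O10Rik, 1700029B22Rik, 1700095A13Rik, 1700001O22Rik and 1700080E11Rik. 1700001O22Rik, protein coding, had 681, 564 and 602 CPM in WT testes, 417, 334 and 319 CPM in N pieces, 147, 186 and 97.3 CPM in TAT pieces and 29.8, 58.9 and 10.9 CPM in TM pieces, so that none of the groups overlapped. Its log2 fold change in TAT was -2.10 (SE 0.46, adjusted p = 0.00927). 1700019G17Rik, named Nat8f4 in RefSeq after the N-acetyltransferase 8 family, had 55.9, 78.8 and 88.4 CPM in WT testes and 17.5, 21.1 and 13.2 CPM in TAT pieces (log2 fold change -2.10, SE 0.36, adjusted p = 0.00259), with non-whole values in all 17 libraries. The antisense RNA 1700029B22Rik had 230, 245 and 265 CPM in WT testes and 48.3, 61.4 and 33.8 CPM in TAT pieces (log2 fold change -2.37, SE 0.49, adjusted p = 0.00692). TAT of animal 79853 had the lowest TAT value for 341 of the 416 transcripts. The count of 42 was 2 without KO animal 79781 and 172 without KO animal 79813, and 12, 16 and 14 without WT animals 79783, 79811 and 79852. The summed spermatid markers were 8142, 11409 and 4484 CPM in TAT of the 3 KO animals, and their part in these changes was not tested.

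Within the KO animals, no transcript of 410 tested was called between TAT and N, beside 0% of all genes in each direction. At an unadjusted p under 0.05 none was higher and 79 were lower in TAT, and the median log2 fold change was -0.98. DESeq2 called 113 lower, limma-voom on 17 libraries 52 and edgeR on 17 libraries 34. In TM compared with N, 361 of 410 were lower and 1 was higher, beside 28.5% and 24.9% of all genes, and 100 were lower without animal 79781. In TM compared with TAT, 262 were lower and none was higher, beside 17.7% and 7.65% of all genes, and none was called lower without animal 79781. At an unadjusted p under 0.05, none was higher and 339 were lower in TM than in TAT, and DESeq2 and limma-voom called none higher.

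The 4 with the smallest p in TM compared with TAT were 1700056E22Rik, 1700022A21Rik, 1700018B24Rik and 1700014D04Rik. The lincRNA 1700018B24Rik had 383, 710 and 413 CPM in WT testes, 459, 569 and 393 CPM in N pieces, 269, 444 and 240 CPM in TAT pieces and 37.1, 135 and 22.7 CPM in TM pieces. WT, N and TAT overlapped and TM lay below all of them (TM against TAT, log2 fold change -2.55, SE 0.39, adjusted p = 0.0164). 1700056E22Rik, a single-exon protein coding gene, had 37.5, 61.0 and 25.4 CPM in TAT pieces and 9.23, 18.3 and 7.15 CPM in TM pieces (log2 fold change -1.82, SE 0.27, adjusted p = 0.0164). The order of means WT, TAT and TM from high to low held for 392 of the 416 transcripts, beside 39.5% of all genes tested. With N between WT and TAT it held for 322, beside 26.8%, and for 80 transcripts the mean in N was above that in WT.

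Genes that lie opposite these transcripts were called in both directions. Among the 368 that fell, 66 had exons that overlap a tested gene on the other strand, and of these 67 genes 28 (41.8%) were lower in TM, 13 (19.4%) were higher and 26 were not called, beside 30.6% lower and 27.8% higher among all genes. Where a gene started within 1000 bases on the other strand, 30 of 53 (56.6%) were lower and 7 (13.2%) were higher. Of the lower genes, *Arl9*, of the ARF-like GTPase family, had 45.3, 82.7 and 94.2 CPM in WT testes and 6.58, 5.64 and 1.38 CPM in TM pieces (log2 fold change -4.03, SE 0.52), while 1700112J05Rik, which overlaps it, was at -3.51. *Nkx2-6*, a homeobox transcription factor, had 67.7, 82.9 and 55.6 CPM in WT testes and 4.30, 8.40 and 2.29 CPM in TM pieces (-3.75, SE 0.41), while 1700092C10Rik was at -3.39. Of the higher genes, *Trim35*, a ubiquitin ligase that starts opposite 1700001G11Rik, had 55.3, 49.2 and 49.7 CPM in WT testes and 170, 149 and 156 CPM in TM pieces (log2 fold change 1.62, SE 0.21), while 1700001G11Rik was at -2.69. *Vcp*, an ATPase that extracts ubiquitinated proteins, had 305, 341 and 305 CPM in WT testes and 618, 627 and 583 CPM in TM pieces (0.94, SE 0.17), while 1700022I11Rik, which overlaps it, was at -3.48. *Mef2d*, a transcription factor, had 2.72 to 3.94 CPM in WT testes and 18.3 to 33.6 CPM in TM pieces, while 1700113A16Rik, antisense to it, was at -1.19. These 5 pairs were picked after their values were seen.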

How the data were processed

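The authors made poly(A)-primed libraries with unique molecular identifiers, aligned them with STAR 2.6.1d to GRCm38 and deposited expected counts (estimated counts, not whole) per gene. Their text names Salmon and the submitters' processing notes list featureCounts (Subread 2.0.1), so which made the values, and whether strand was used, is unknown here. Non-whole values, found for 107 of the 416 transcripts, come from reads shared between genes.

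Libraries of 1 animal and region were summed and rounded. The test was edgeR 4.0.16 in R 4.3.3 (TMM, filterByExpr, quasi-likelihood test, Benjamini-Hochberg over all genes). N, TAT and TM were compared with WT in all 12 summed libraries. They were compared with each other in the 9 of KO animals with the animal as a block, because the regions came from the same animals. The correlation of deviations between regions was 0.0208 to 0.334 within animals (mean 0.0907) and -0.273 to 0.0527 between animals (mean -0.0452), ranges that overlap. A call needed an adjusted p under 0.05 and a fold above 1.5. CPM are TMM-scaled and not corrected for length, so an order of transcripts by CPM is one of counts. Positions are GENCODE M21. The edgeR script was run on simulated counts with known changes in a small part of the genes and no differences between animals. That run cannot test the scaling where many genes change, as in TM.

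Transcripts named in the text were the 10 with the most CPM in WT, up to 10 not called in TM with at least 2 CPM in WT and changes nearest 0, the 8 with the most negative change in TM, those called in N, up to 6 called each way in TAT, and up to 4 in TM against TAT and in TAT against N. Transcripts outside this rule (those of the sperm tail, the spermatid nucleus and meiosis, those lower by a log2 fold change above -2, Tslrn1 and 1700048O20Rik) were named after their values were seen. The members and gene lists were chosen with earlier results of these data known. Alternatives were DESeq2 1.42.0, limma-voom (limma 3.58.1) and edgeR on the 17 libraries, RLE size factors, total library size, no filter, no fold threshold, only the groups compared, only testis 1 of animal 79813, each animal left out, no block, and a minimum of 50 or 200 counts.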

Additional observations from a re-analysis of the deposited data

Results flagged for a closer look

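The share of counts in the 416 transcripts was 3.79% in the N library of KO animal 79781, and lay apart from the other 3 N libraries, which had 3.46%, 3.48% and 3.45%. The gap to the nearest of them passed Dixon's 95% value for 4 libraries, and 3 groups of libraries were tested. Chance passes that step in about 1 in 20 groups of independent libraries. Of these N libraries 2 came from animal 79813, 1 from each testis, so they were not independent and that rate does not hold here. By animal the N shares were 3.79%, 3.47% and 3.45% in 79781, 79813 and 79853.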

How the results depend on the processing

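The count of transcripts lower in TM than in WT was 368 and stayed between 314 and 395 under all alternatives, and the count lower in TM than in TAT kept within 1.5 times of 262 except without KO animal 79781 (range 0 to 273 on leaving out each KO animal). The count lower in TM than in N ranged from 100 to 344 on leaving out each KO animal. Without the replicate block, 356 were lower in TM than in N, 189 in TM than in TAT and none in TAT than in N. The count of 42 lower in TAT than in WT was 98 with RLE size factors, 69 with no filter on low counts, 170 with DESeq2, 181 with limma-voom and 75 with edgeR on the 17 libraries, 235 with only the 2 groups in the fit, 81 with only testis 1 of animal 79813, and 2 to 172 on leaving out each animal. The count lower in TAT than in N (0) was 2 with total library size, 113 with DESeq2, 52 with limma-voom and 34 with edgeR on the 17 libraries, 219 with only the 2 groups in the fit, and 0 to 44 on leaving out each KO animal. With only the 2 groups in the fit 2 transcripts were higher and 4 lower in N than in WT and 2 were higher in TAT than in WT, and DESeq2 called 1 lower in N. The count higher in TM than in WT (0) was 1 with total library size, 1 with DESeq2, 1 with edgeR on the 17 libraries and 0 to 1 on leaving out each animal. The count higher in TM than in N (1) was 0 with RLE size factors, DESeq2, limma-voom, edgeR on the 17 libraries and only the 2 groups in the fit, and 0 to 1 on leaving out each KO animal. The cause of these shifts was not tested. Total library size moved the median log2 fold change of all genes in TM from -0.07 to 0.25 and that of the transcripts from -3.46 to -3.19. Of 1944 values of named transcripts under the alternatives, 64 lost and 66 gained a call, none reversed a call, and 68 that were called under neither setting changed sign. A minimum of 50 or 200 counts gave 432 or 401 transcripts. Of the transcripts with under 2 CPM in WT, 12 were called lower in TM and 23 were not. The 47 not called lower in TM ranged from 34 to 96 on leaving out each animal.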
